A study of Mus musculus with 4 samples.

Results

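Metallothioneins and the zinc transporters around them were described in Hepa1-6, a mouse hepatocellular carcinoma cell line, across wild-type cells and cells labelled as knockouts of Acvr2a, an activin receptor. The gene group held 10 of the 54838 genes listed in each deposited file. It comprised the metallothioneins Mt1, Mt2 and Mt3, the zinc-sensing transcription factor gene Mtf1, the exporter genes Slc30a1 and Slc30a10, and the importer genes Slc39a4, Slc39a8, Slc39a10 and Slc39a14. The members were found by gene symbol and had been selected with their difference between knockout and wild-type libraries in view, so that difference is given as a description, with no p-value for any member.

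RNA-seq libraries were made from total RNA of 2 samples labelled NC (genotype Acvr2a wild type) and 2 labelled KO (Acvr2a knockout). The series title places the study in lactate production, hyperglycolysis and the attraction of regulatory T cells in hepatocellular carcinoma. The knockout cells are described as subclones, and the sources used here do not say whether KO 1 and KO 2 were separate subclones or cultures of the same one. No treatment, time point or metal exposure is named for either group, and all 4 libraries come from the same tumour line.

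Metallothioneins are small cysteine-rich proteins that bind zinc and copper in the cytosol and buffer their free levels. Zinc binding to the zinc fingers of MTF-1, the protein of Mtf1, lets it occupy metal response elements in promoters, and Mt1, Mt2 and Slc30a1 are its best known targets, induced when free zinc rises. Transporters of the Slc30 family (ZnT) move zinc out of the cytosol, and those of the Slc39 family (ZIP) move it in. In liver, metallothionein RNA also responds to glucocorticoids, inflammatory signals and oxidants.

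The promoters of the 3 best known MTF-1 targets are shown first, because these are also the 3 members with more reads for their library's size (CPM) in both KO libraries than in either NC library. The letters searched for were the conserved core of the metal response element, TGCACNC and TGCGCNC, where N is any base, on both strands. The windows are those of RefSeq on GRCm38.p6, running from 250 bases before to 50 bases after the annotated transcript start. Each of 300 bases thus covers the upstream region and the start of the first exon as RefSeq draws them. Matches are in capitals, and a match on the other strand appears as its reverse complement. The windows are Mt1 at chr8:94178839-94179138, Mt2 at chr8:94172368-94172667 and Slc30a1 at chr1:191906531-191906830, all on the plus strand.
Mt1: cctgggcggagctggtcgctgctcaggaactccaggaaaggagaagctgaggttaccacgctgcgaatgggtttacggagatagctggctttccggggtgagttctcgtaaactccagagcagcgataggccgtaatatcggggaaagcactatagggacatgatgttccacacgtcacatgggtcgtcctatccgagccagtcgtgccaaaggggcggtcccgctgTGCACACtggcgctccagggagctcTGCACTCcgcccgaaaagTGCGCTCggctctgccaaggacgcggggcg
Mt2: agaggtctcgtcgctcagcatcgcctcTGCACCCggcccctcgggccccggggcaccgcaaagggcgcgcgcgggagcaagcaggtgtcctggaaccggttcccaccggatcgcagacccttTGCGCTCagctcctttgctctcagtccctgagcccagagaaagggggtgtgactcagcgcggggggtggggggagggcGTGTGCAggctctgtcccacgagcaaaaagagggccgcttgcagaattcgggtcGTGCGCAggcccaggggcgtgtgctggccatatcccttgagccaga
Slc30a1: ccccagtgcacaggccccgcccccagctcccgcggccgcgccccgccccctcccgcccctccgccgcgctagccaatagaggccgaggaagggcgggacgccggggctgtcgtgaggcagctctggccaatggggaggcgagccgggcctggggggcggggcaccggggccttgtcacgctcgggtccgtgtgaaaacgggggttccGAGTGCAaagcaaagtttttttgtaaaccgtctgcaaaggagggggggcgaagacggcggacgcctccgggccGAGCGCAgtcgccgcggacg

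The Mt1 window held 3 matches, all on the gene's strand, at bases -23, 3 and 21 from the RefSeq start. Positions are those of the first letter of each match in genome order, with base 1 the RefSeq start base. The Mt2 window held 4 matches, at -223 and -128 on the gene's strand and at -50 and 5 on the other. The Slc30a1 window held 2, at -43 and 31, both on the other strand. Over the 32851 windows of the same length in the RefSeq table, 25.7% held at least 1 match, 7.11% at least 2, 1.97% at least 3 and 0.517% at least 4. The Mt1 and Mt2 windows therefore carry these letters more densely than most windows, which is a description of the sequence and not of binding. They were shown as windows of known MTF-1 targets that were higher in KO. Their matches are thus no evidence on that difference.

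Among the other members, the Slc30a10 window held 3 matches, as many as that of Mt1, though Slc30a10 had no counts in any library. The first pair of these overlap on opposite strands. The Mt3 window held 1 match. The single Mtf1 window and both Slc39a10 windows held none of these letters, and the Slc39a8 windows held none and 1. Windows were found for 8 of the 10 members, 10 windows in all. Annotated starts differ between sources: the RefSeq start of Mt1 lies 7 bases from the nearest GENCODE start, but GENCODE lists further Mt1 starts 122 and 152 bases downstream, past the window. Counted from those further starts, all 3 Mt1 matches would lie upstream, and the bases between the window's end and those starts were not searched. For Mt2 the GENCODE starts lie 46 and 242 bases after the RefSeq start, the latter past the window. GENCODE also lists a Slc30a1 start 475 bases downstream, past its window. The bases between those windows' ends and these starts were not searched either. For one of the Slc39a10 windows the nearest GENCODE start was 32924 bases away, so that window lies outside the gene as GENCODE draws it.

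**Figure D1:**
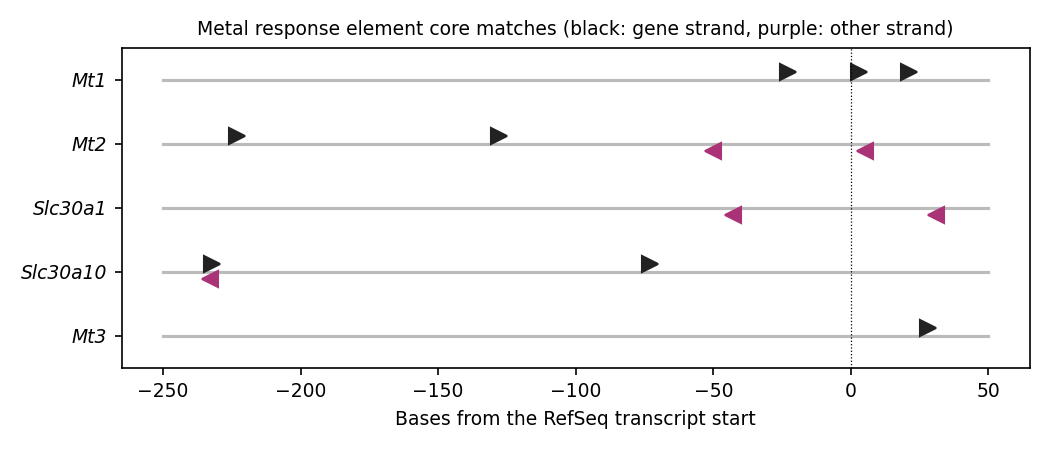
Positions of metal response element core matches (TGCACNC or TGCGCNC) in the RefSeq windows of 5 members, in bases from the RefSeq transcript start on the horizontal axis. Right-pointing black marks are on the gene's strand and left-pointing purple marks on the other, with 3 matches in Mt1, 4 in Mt2, 2 in Slc30a1, 3 in Slc30a10 and 1 in Mt3.

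Core matches were also counted over all tested genes with a RefSeq window, the members included. Of the 9386 tested genes with a RefSeq window, 19.6% were called higher in KO (the test is given below with its background). That share was 19.1% for the 5597 genes with no match, 20.2% for the 3426 with 1 or 2, 20.8% for the 342 with 3 or 4 and 19% for the 21 with 5 or more. The share called lower was 19% of the 9386, and 19.4%, 18.4%, 18.1% and 28.6% in the same order, the last from only 21 genes.

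The 4 libraries summed to between 11597923 and 13910582 expected counts, the authors' estimated read numbers per gene. Acvr2a itself, the targeted gene, was counted 81 and 108 times in the NC libraries and 75 and 97 times in the KO libraries, and the groups overlapped (log2 fold change -0.21, SE 0.20, edgeR quasi-likelihood test adjusted p 0.433). In the annotation Acvr2a overlaps Orc4 on the other strand, so these counts are less certain. RNA level did not separate the libraries by genotype, and a deletion that leaves the RNA in place would not be seen this way. The group names follow the labels throughout. Of 10 hepatocyte and hepatoma markers, 8 exceeded 1 TPM, but Ttr and Serpina1a were near 0, with at most 5 counts in any library. The summed hepatocyte markers came to 4608 and 4412 TPM in NC and 3379 and 3080 TPM in KO, but they did not move together. Apoe, the largest part of the sum, had 3274 ± 94.0 TPM in NC and 1789 ± 241.3 in KO, and Afp, Hnf4a and Foxa2 were lower as well. Alb was higher, from 485.2 ± 17.8 to 668.4 ± 62.5 TPM, and so was Trf, from 360.8 ± 14.8 to 566.9 ± 27.6 TPM. The endothelial list had 0 of 4 and the neural list 0 of 5 markers above 1 TPM. The leukocyte list had 1 of 6, Cd68, with summed levels of 24.3 and 27.9 TPM in NC and 55.8 and 68.3 in KO, while Cd3e was at 0 in every library. The stellate and fibroblast list had 1 of 5, Dcn, with summed levels of 1032 and 1094 TPM in NC and 1229 and 1234 TPM in KO and Lrat at 0. The enterocyte list had 1 of 4, Vil1, with sums of 82.6 to 91.7 TPM. In bulk RNA, fewer cells of a type and less RNA per cell cannot be told apart, and the part of these markers in the results below was not tested.

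Levels between genes were compared in TPM, the authors' length-scaled values. Mt1 was the most abundant member, at 399 ± 28.4 TPM in NC and 740.7 ± 13.9 TPM in KO (SD, n = 2 libraries each, as for every mean below). Averaged over the 4 libraries it ranked 204 of the 20640 genes with any TPM, within the top 0.988%. In NC the order ran Mt1, Slc39a4, Mt2, Slc39a14, Slc39a10, Slc39a8, Mtf1 and Slc30a1. The neighbours from Slc39a14 to Slc39a10 overlapped between libraries, as did Slc39a10 with Slc39a8 and Slc39a8 with Mtf1, and these do not differ beyond their spread. In KO the order ran Mt1, Mt2, Slc39a4, Slc39a14, Mtf1, Slc39a10, Slc39a8 and Slc30a1, with no overlap between neighbours. Mt2 and Slc39a4 thus exchanged places between the groups.

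**Figure D2:**
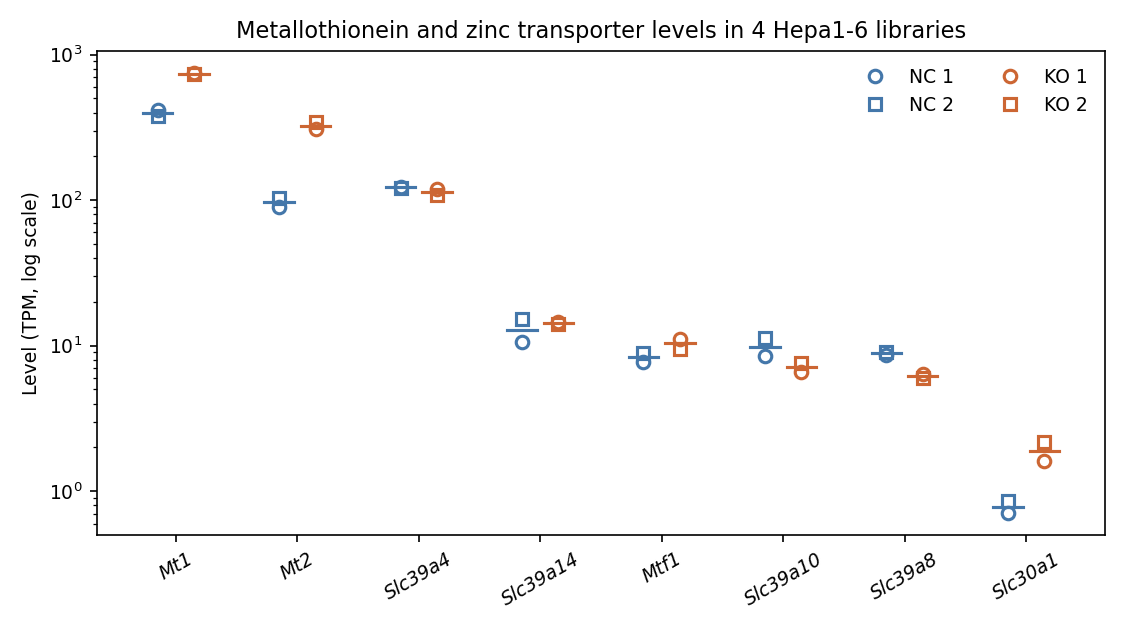
Level in TPM (log scale) of the 8 members with any count, in each of 4 libraries; open symbols are single libraries and horizontal lines are group means of 2. Mt1 and Mt2 are higher in both KO libraries, Slc39a8 and Slc39a10 are lower in both, and the Slc39a14 libraries overlap.

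The comparison of KO with NC asks how zinc-handling genes differ in level between libraries labelled as Acvr2a knockout and as wild type. In CPM (counts scaled to library size, with TMM, a normalization that balances library composition), Mt1, Mt2 and Slc30a1 were higher in both KO libraries than in either NC library. Slc39a4, Slc39a8 and Slc39a10 were lower in both, as was Mtf1 in CPM but not in TPM, and Slc39a14 overlapped. Mt3 and Slc30a10 had no counts. Of the 8 members that passed the filter on low counts, 5 were called (adjusted p under 0.05 in the edgeR fit), 3 of them higher in KO and 2 lower. The same threshold called 37.9% of the 12510 genes tested, 19.7% higher and 18.2% lower, and groups of 2 did not overlap in 69.4% of them. The members were chosen on this contrast, so their count of calls is no evidence of a difference and nothing is read from it against that background. Their median log2 fold change was -0.096, against -0.0037 over all tested genes.

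Mt1, on the plus strand of chromosome 8 at 94179082 to 94180327 (GRCm38, GENCODE M21), encodes the main liver metallothionein together with its neighbour Mt2. NC 1 and NC 2 gave 1402 and 1448 counts, KO 1 and KO 2 gave 2700 and 2814. In CPM these were 123.2 and 104.5 against 204.7 and 208.1. The KO libraries lay close together and the lower of them exceeded the higher NC library. The log2 fold change was 0.86 (SE 0.096, 95% interval 0.66 to 1.06), a 1.82-fold higher level.

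Mt2 lies upstream on the same strand (94172664 to 94173568), its end 5513 bases before the start of Mt1, and it overlaps Gm45774 on the other strand. NC libraries held 263 and 342 counts and KO libraries 937 and 1122. Its CPM was 23.1 and 24.7 in NC and 71.0 and 83.0 in KO, with the groups far apart relative to the spread within each. The log2 fold change was 1.69 (SE 0.11, 95% interval 1.46 to 1.91), a 3.22-fold higher level and the widest difference among the members in either direction.

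Mt3, a metallothionein best known from brain, sits 18517 bases before Mt2 in the same cluster (94152607 to 94154146). It had 0 counts in every library, where the limit that a count of 0 allows (3 counts, counting error only) was 0.216 to 0.259 CPM. It was not tested, and RNA under that limit could not have been seen at this depth.

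The make-up of the metallothionein RNA differed between the groups as well as its amount. Mt1 and Mt2 together came to 509.3 and 481.99 TPM in NC and to 1059.2 and 1072.76 TPM in KO. Mt1 made up 82.3% and 78.6% of that sum in NC and 70.9% and 68.1% in KO. The groups did not overlap, and the mean share was 80.5% ± 2.60 in NC and 69.5% ± 1.93 in KO (SD, n = 2). The Mt1 to Mt2 ratio went from 4.16 ± 0.687 to 2.28 ± 0.208. Mt1 remained the more abundant metallothionein in each of the 4 libraries.

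**Figure D3:**
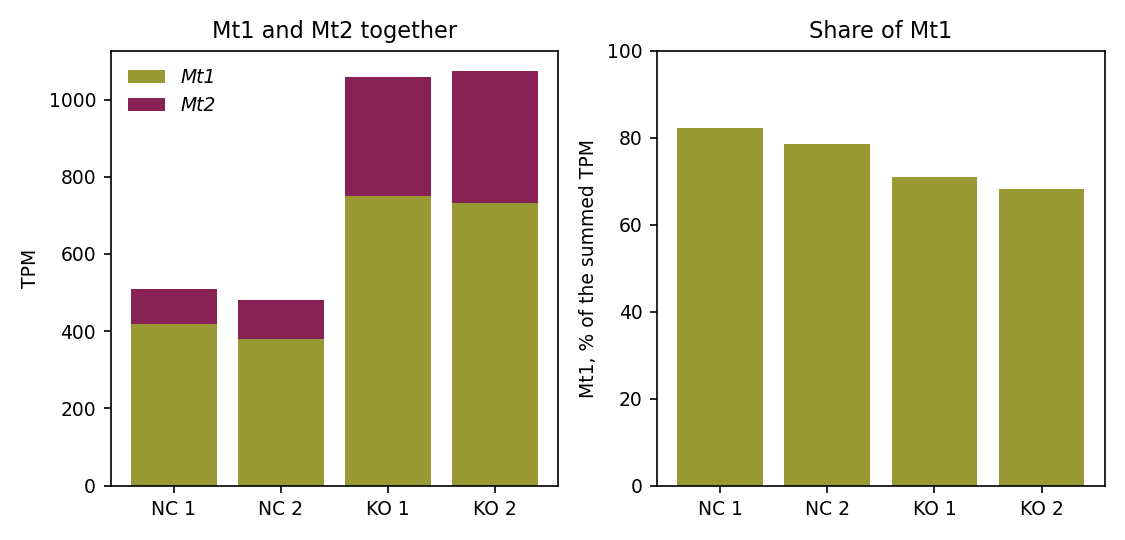
Left, Mt1 and Mt2 stacked, in TPM, for each library; right, Mt1 as a percentage of their summed TPM, both axes starting at 0. The sum is 481.99 to 509.3 TPM in NC and 1059.2 to 1072.76 TPM in KO, and the Mt1 share is 78.6% to 82.3% in NC and 68.1% to 70.9% in KO.

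Mtf1 (chromosome 4, 124802104 to 124849800, plus strand) encodes the zinc-sensing factor itself, whose activity is set largely by zinc binding. Counts of 384 and 553 in NC compared with 415 and 431 in KO. In the annotation Mtf1 overlaps 1110065P20Rik on the other strand, so these counts are less certain. In CPM, 33.7 and 39.9 in NC stood against 31.5 and 31.9 in KO. Both KO values lay below both NC values, but the group means were closer than the NC pair was to each other, and the log2 fold change was -0.22 (SE 0.11, 95% interval -0.45 to 0.012). Without NC 2 it was -0.085, and without NC 1 it was -0.33. Mtf1 thus showed no rise in count beside Mt1 and Mt2.

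On the TPM scale the direction for Mtf1 turned, from 7.70 and 8.90 in NC to 11.19 and 9.52 in KO, a ratio of means of 1.25. TPM values divide by effective length, the authors' abundance-weighted length over a gene's transcripts, which for Mtf1 was 4668 and 5007 bases in NC and 3260 and 3718 in KO. Among the 12510 tested genes, 20.1% had effective lengths shorter in both KO libraries without overlap, and 1.42% had a drop as large as that of Mtf1. GENCODE M21 lists 5 Mtf1 transcripts of 636 to 7631 bases. The deposited files give no counts per transcript, so which transcripts carried the reads was not tested, and no direction is given for Mtf1 RNA.

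Slc30a1 (chromosome 1, 191906767 to 191913247, plus strand) encodes ZnT1, the zinc exporter of the plasma membrane. It was the least abundant member detected, at 38 and 53 counts in NC against 92 and 132 in KO. In the annotation it overlaps 1700034H15Rik on the other strand, so these counts are less certain. Its CPM was 3.34 and 3.82 in NC and 6.97 and 9.76 in KO. The KO libraries differed between themselves by more than the NC pair did, but both were above both NC values. The log2 fold change was 1.22 (SE 0.23, 95% interval 0.74 to 1.70), a 2.33-fold higher level with a wider interval than for the metallothioneins because of the low counts.

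As a part of all Slc30 transcripts Slc30a1 stayed small. It contributed 0.836% and 0.932% of the summed Slc30 TPM in NC and 1.96% and 2.61% in KO. The family sum itself was 84.9 and 91.18 TPM in NC and 82.48 and 83.11 TPM in KO, below both NC values. Slc30a10, an exporter mainly of manganese (chromosome 1, 185454848 to 185468762), had 0 counts in every library.

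The 4 importer members stood level or lower in KO in CPM. This does not hold for every Slc39 gene, since Slc39a13, given below, was higher. Slc39a10 (ZIP10, chromosome 1, 46807544 to 46892852, minus strand), a zinc importer of the plasma membrane that is repressed by MTF-1 when zinc is high, gave 475 and 598 counts in NC against 280 and 306 in KO. Its CPM was 41.7 and 43.1 in NC and 21.2 and 22.6 in KO. The replicate pairs were tight and the groups well apart, with a log2 fold change of -0.95 (SE 0.11, 95% interval -1.19 to -0.72), a 1.94-fold lower level in KO.

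The Slc39a10 difference was smaller in TPM, at 8.45 and 11.21 in NC and 6.59 and 7.58 in KO, a KO to NC ratio of 0.721. Here too the effective length was shorter in KO, at 5260 and 4300 bases in NC and 3730 and 3315 in KO, and 1.68% of tested genes had a drop as large. The annotation lists 4 transcripts of 497 to 5498 bases. Both scales put Slc39a10 lower in both KO libraries, but its call past the threshold was lost when log2 TPM was tested in place of counts, as was that of Slc39a8.

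Slc39a8 (ZIP8, chromosome 3, 135825279 to 135888572, plus strand) carries zinc, manganese and iron. NC libraries gave 264 and 324 counts, and KO libraries 216 and 215. The CPM of 23.2 and 23.4 in NC and 16.4 and 15.9 in KO was nearly the same within each pair. The log2 fold change was -0.53 (SE 0.13, 95% interval -0.80 to -0.26), a 1.44-fold lower level, and the TPM means were 8.86 ± 0.283 in NC and 6.22 ± 0.283 in KO.

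**Figure D4:**
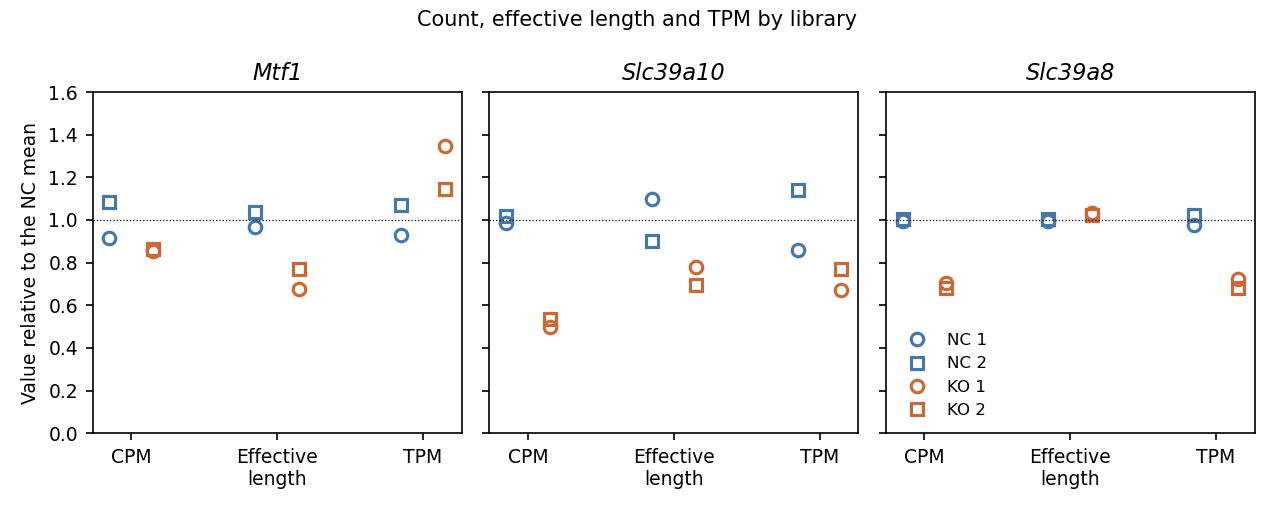
CPM, effective length and TPM of Mtf1, Slc39a10 and Slc39a8 in each library, each divided by its NC mean (dotted line at 1). Effective length is below the NC values in both KO libraries for Mtf1 and Slc39a10, where the KO to NC ratios of means are 0.721 and 0.737, and sits near 1 for Slc39a8.

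Slc39a4 (ZIP4, chromosome 15, 76612383 to 76617384, minus strand), the importer that takes up dietary zinc in the intestine, was the most abundant of the 4 importer members. Counts of 2602 and 3061 in NC stood against 2663 and 2640 in KO, or 228.7 and 220.8 CPM against 201.9 and 195.2 CPM. Both KO libraries lay below both NC libraries by a small margin, with a log2 fold change of -0.18 (SE 0.090, 95% interval -0.36 to 0.0058). It made up 24.9% and 24.8% of the summed Slc39 TPM in NC and 23.3% and 21.7% in KO, while that sum was 492.39 to 493.83 TPM in NC and 500.92 to 513.59 TPM in KO.

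Slc39a14 (ZIP14, chromosome 14, 70303469 to 70351425, minus strand), which carries zinc, manganese and non-transferrin iron into hepatocytes, was read 504 and 689 times in NC against 586 and 659 times in KO. Its CPM was 44.3 and 49.7 in NC and 44.4 and 48.7 in KO. The groups overlapped almost wholly and the log2 fold change was -0.015 (SE 0.10, 95% interval -0.23 to 0.20). The interval leaves room for a difference of that size in either direction, and the sign was positive on the TPM scale.

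**Figure D5:**
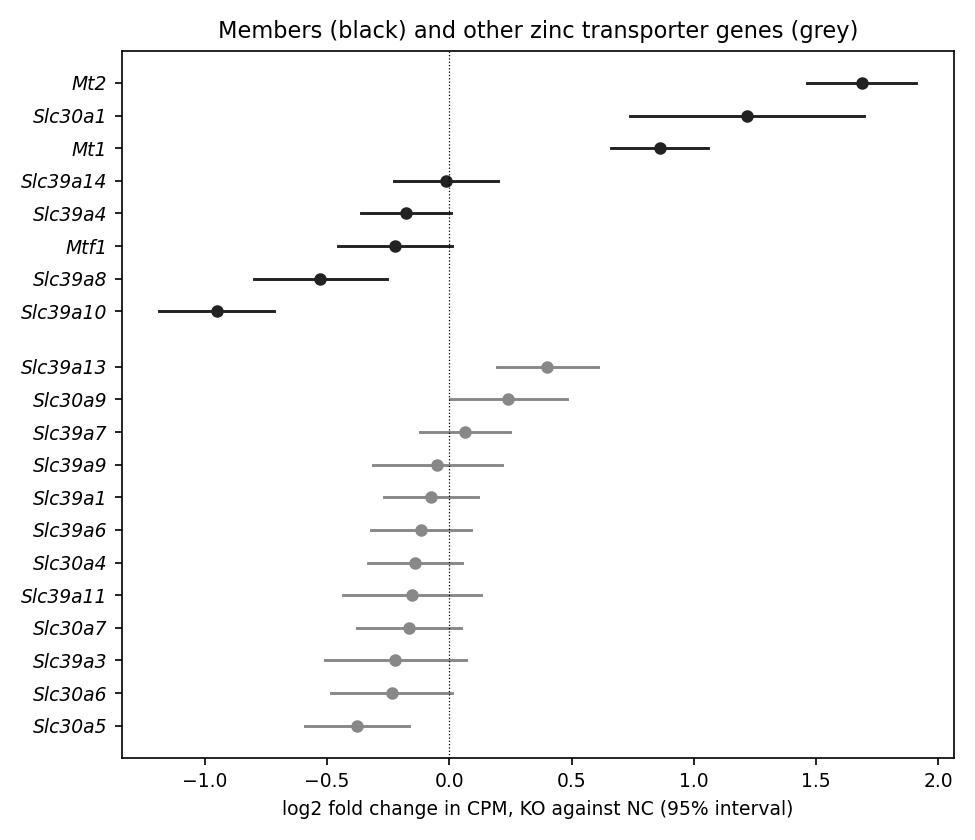
Log2 fold change in CPM, KO against NC, with 95% intervals from edgeR's quasi-likelihood fit, for the 8 tested members (black) and the 12 other tested Slc30 and Slc39 genes (grey). Mt2, Slc30a1 and Mt1 lie to the right of 0, Slc39a8 and Slc39a10 to the left, and the grey genes lie between -0.38 (Slc30a5) and 0.40 (Slc39a13).

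The remaining zinc transporter family showed 2 calls among 12 tested genes, 16.7% of them against 37.9% of all tested genes. Its median log2 fold change was -0.13. This list, like those below, was chosen with earlier results of these data known. Its p-values and theirs therefore describe these libraries and are no independent evidence. Slc39a13, which moves zinc out of the early secretory pathway, rose from 53.8 and 47.6 CPM in NC to 64.0 and 69.7 in KO, with no overlap (log2 fold change 0.40, SE 0.10, edgeR adjusted p 0.00248). It overlaps Psmc3 on the other strand, and without NC 2 its adjusted p was 0.0545 (edgeR), with 0.0877 the highest over all alternatives (limma on unfiltered TPM). Slc30a5, which loads zinc into the Golgi, fell from 51.1 and 53.2 CPM to 37.75 and 42.5 (log2 fold change -0.38, SE 0.10, edgeR adjusted p 0.00485). Without KO 1 its adjusted p was 0.0558 (edgeR), and the highest over all alternatives was 0.382 (limma on unfiltered TPM). The other 10 had log2 fold changes between -0.24 (Slc30a6) and 0.24 (Slc30a9), none past the threshold. Of the 20 genes listed, which included Mt4 and Tmem163, 8 were under the filter on low counts. Slc30a2, Slc30a8, Slc39a5, Slc39a12 and Mt4 were at 0 throughout. Slc39a7, at 136.4 ± 0.0141 TPM in NC and 150.1 ± 2.84 in KO, stood above the member Slc39a4 in both groups. In the annotation Slc39a7 overlaps Gm20427 on the same strand, so its level is less certain. Slc39a1 had 112.9 ± 5.72 TPM in NC and 111.6 ± 2.48 in KO.

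Of 15 tested genes on a list of further zinc-response and metal-stress genes, 7 passed, 2 higher and 5 lower. That is 46.7% of them, near the 37.9% of all tested genes, with a list median of -0.18. Hmox1, the heme oxygenase induced by metals and oxidants, rose from 36.6 and 36.9 CPM in NC to 72.55 and 87.9 in KO (log2 fold change 1.13, SE 0.11, edgeR adjusted p 4.49e-09). Nfe2l2, the gene of the oxidant-responsive factor NRF2, fell from 223.6 and 218.7 CPM to 157.0 and 154.1 (log2 fold change -0.51, SE 0.090, edgeR adjusted p 7.12e-05). Gclm, a subunit of the enzyme that limits glutathione synthesis, fell from 95.5 and 80.7 CPM to 61.6 and 60.85 (log2 fold change -0.52, SE 0.10, edgeR adjusted p 0.000164). Slc7a11, the cystine importer, fell by 0.40 on the log2 scale (edgeR adjusted p 0.00243, 0.159 for log2(TPM + 1) with the filter in limma). In that TPM test Gclc stood at an adjusted p of 0.0839 and Gpx1 at 0.181. Without the filter no gene of any list passed on the TPM scale. The genes of this list thus moved in both directions: the other calls were Gclc, higher, and Gpx1 and Selenoh, lower. DESeq2 called neither Gpx1 (adjusted p 0.0534) nor Selenoh (0.172). Without KO 2 only 4 of the 7 passed, with Gclc at an adjusted p of 0.0934, Gpx1 at 0.201 and Selenoh at 0.139 (edgeR). Without NC 2, Gpx1 stood at 0.0605 and Selenoh at 0.343 (edgeR).

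Metallothioneins also bind copper, and of 18 tested copper-handling genes 6 passed, 4 higher and 2 lower. That is 33.3% of them, against 37.9% of all tested genes, with a list median of -0.040. Atp7a, the copper pump of the secretory pathway, rose from 9.40 and 14.8 CPM in NC to 24.4 and 28.2 in KO (log2 fold change 1.11, SE 0.16, edgeR adjusted p 4.90e-06). Steap4, a metalloreductase, rose from 8 and 10 counts to 33 and 50 (log2 fold change 2.11, SE 0.42, edgeR adjusted p 0.000231). Atp7b, the liver copper pump, rose from 18 and 21 counts to 48 and 76 (log2 fold change 1.58, SE 0.33, edgeR adjusted p 0.000385). Cp, the gene of the copper-carrying ferroxidase ceruloplasmin, rose from 20.6 and 21.1 CPM to 30.6 and 32.6 (log2 fold change 0.60, SE 0.12, edgeR adjusted p 0.000315). On the TPM scale with the filter 2 of the 6 passed, Atp7a and Steap4. In limma on log2(TPM + 1) Atp7b had an adjusted p of 0.0579, Cp of 0.0567, Sco2 of 0.0542 and Commd1 of 0.256. The lower calls were Sco2, a mitochondrial copper chaperone, at -0.75 and Commd1, a copper trafficking gene, at -0.50 on the log2 scale. Commd1 was not called by DESeq2 (adjusted p 0.0751), and its log2 fold change was -0.27 without NC 1 and -0.43 without KO 2 (edgeR).

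Slc39a8 and Slc39a14 carry iron and manganese too, and of 9 other tested iron and manganese transport genes 4 passed, 3 higher and 1 lower. That is 44.4% of them, near the 37.9% of all tested genes, with a list median of 0.16. Atp13a2, a lysosomal pump, rose from 12.9 and 13.4 CPM in NC to 23.8 and 21.4 in KO (log2 fold change 0.78, SE 0.14, edgeR adjusted p 8.27e-05). Cp counts in this list also. No gene of the list passed on the TPM scale in limma, where 3 with the filter and 2 without it had an unadjusted p under 0.05. Slc40a1, the iron exporter ferroportin and a further MTF-1 target, rose from 46.5 and 38.4 CPM to 52.0 and 55.2 (log2 fold change 0.34, SE 0.11, edgeR adjusted p 0.0128). DESeq2 did not call Slc40a1 (adjusted p 0.0608). Its adjusted p was 0.231 without NC 2 and 0.0568 without KO 2 (edgeR). Tmem165, a Golgi manganese transporter, fell from 42.8 and 41.6 CPM to 28.7 and 38.1 (log2 fold change -0.33, SE 0.12, edgeR adjusted p 0.0274). DESeq2 did not call Tmem165 either (adjusted p 0.118). Its call was lost without NC 1 (adjusted p 0.0764), without NC 2 (0.0597) and without KO 1 (0.412, all edgeR), and without NC 2 the list gave 2 calls. In the annotation Gclm, Sco2, Commd1 and Tmem165 overlap another gene on the same strand and Cp overlaps Hps3 on the other, so their counts are less certain.

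The genes whose pattern over the 4 libraries was nearest to that of Mt1, by Euclidean distance between log2 CPM profiles centred on their means, were Eno2 (distance 0.0235), Fam162a (0.0456), Klc3 (0.0460), Prpf40b (0.0657) and Micall2 (0.0720). Predicted genes (symbols of the Gm or Rik form) were passed over. Eno2, a glycolytic enolase, had 16.5 and 14.1 CPM in NC and 27.7 and 28.6 in KO. Fam162a, a mitochondrial protein gene, had 28.0 and 24.3 CPM in NC and 48.1 and 47.0 in KO. With 4 libraries in 2 groups such likeness is common. Predicted genes left out, 1608 tested genes were nearer to Mt1 than Slc30a1 was. Likewise 4767 were nearer than Mt2, whose distance of 0.861 reflects its wider difference between the groups.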

How the data were processed

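RNA-seq was done on 4 Hepa1-6 libraries, 2 NC and 2 KO, grouped by title and genotype label. Expected counts, TPM and effective lengths in bases (one row per gene, one file per library, RSEM column names) are the authors' values, per the file headers. Expected counts are estimated read numbers before normalization, and RSEM shares reads among similar transcripts, so overlapping genes and close copies are uncertain. STAR, RSEM, FastQC and DESeq2 and the builds GRCm38 and mm10 are named in the submitters' processing notes, without versions or roles. The library kit was directional per the labels' protocols, and the strand setting of the counting was not given in the sources used here. The deposited FPKM column was not used.

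Counts were rounded, which changed library totals by at most 0.000188%. After edgeR's filter on low counts, 12510 genes were tested with edgeR 4.0.16 in R 4.3.3 (TMM factors, quasi-likelihood fit, group as the sole term, Benjamini-Hochberg adjustment over all tested genes, threshold 0.05). Steps were tested on simulated data. Intervals of 95% and SEs come from that fit, whose spread is shared across genes. Nothing says that samples of a group were separate cultures, so p-values measure only the spread between these samples. An exact two-sided permutation test of 2 against 2 cannot go below 0.333. Replicates differed by more than counting noise (chi-square per degree of freedom 7.29 for NC, 10.1 for KO).

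Members and lists were chosen with earlier results of these data known. Named genes were all members, Acvr2a, every other Slc30 or Slc39 gene past the threshold, up to 4 genes of lowest p past it in each other list, and the 5 genes nearest to the most abundant member. Predicted genes (symbols of the Gm or Rik form) were passed over among the nearest genes. Further calls of a list were named after their values were seen, to complete small counts. The first list held 20 genes, namely other Slc30 and Slc39 genes, Mt4 and Tmem163. The others held 20 zinc-response and metal-stress genes (19 in the files), 18 copper-handling genes and 12 iron and manganese transport genes. Members were left out. Marker lists covered hepatocyte, leukocyte, endothelial, stellate, neural and enterocyte genes. Alternatives were other scaling, no filter, a robust fit, a replicate block, DESeq2 1.42.0, limma 3.58.1 on log2(TPM + 1) and log2(TPM + 0.1), and leaving out each library.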

Additional observations from a re-analysis of the deposited data

How the results depend on the processing

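The number of members called, which their selection on this contrast largely fixed and which shows no stability, was 5 under each count-based alternative. Tests of log2 TPM with limma gave 3 with the filter at either pseudocount and 0 without it, where 4 members had an unadjusted p under 0.05. Over all genes, 4741 calls (51.9% higher in KO) became 2158 at log2(TPM + 1), 2099 at log2(TPM + 0.1) (68.0% higher in both) and 0 without the filter, where 4506 of 20640 genes had an unadjusted p under 0.05. The cause was not tested, though no filter means more genes tested. Scaling by library totals gave 57.6% higher, and DESeq2 called 3217. Leaving out a library gave 3586 to 4472.

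Mtf1 turned from -0.22 to 0.29 at log2(TPM + 1), with or without the filter, and to 0.31 at log2(TPM + 0.1), the shorter effective length in KO being the divisor. Slc39a14 turned from -0.015 to 0.017 with library totals, to 0.16 at log2(TPM + 1) with or without the filter and to 0.17 at log2(TPM + 0.1), and ran from -0.093 to 0.079 with a library left out. The Mt1 share by counts was 82.5% in NC and 72.9% in KO.

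In the 3 TPM tests (filtered at pseudocounts 1 and 0.1, then unfiltered), other Slc30 and Slc39 genes gave 1, 1 and 0 calls against 2, with 1 at an unadjusted p under 0.05 unfiltered, and 1 to 3 with a library left out. Unfiltered, zinc-response genes gave 0 against 7 (7 unadjusted), and 4 to 7 with a library left out. Copper genes gave 2, 2 and 0 against 6 (4 unadjusted when unfiltered). Iron and manganese genes gave 0, 0 and 0 against 4 (3, 3 and 2 unadjusted), 2 with DESeq2, and 2 to 4 with a library left out.

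With a replicate block 5006 genes were called, 4711 of them among the 4741, and members again gave 5. Same-numbered libraries did not deviate together over the tested genes (correlation -0.012). With 2 libraries per group this cannot show whether they shared a preparation, which remains unknown. Depth limits Slc30a1, with at most 132 counts in a library.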
